A study of Homo sapiens with 48 samples.

Results

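The CYP4F genes encode cytochrome P450 enzymes of family 4, subfamily F, and 5 of them were examined here: CYP4F2, CYP4F3, CYP4F11, CYP4F12 and CYP4F22. They were taken by symbol from a count table of 60610 genes, and 3 of the 5 (CYP4F2, CYP4F3 and CYP4F22) had enough reads to be tested. The family was selected on the CYP4F3 counts of these same libraries, which were known to be lower after 24 h of EGF, alone or with angiotensin II (AII). EGF and AII+EGF against control at 24 h are therefore described without a test for every member. For CYP4F3 the same holds for every comparison that uses the control, EGF or AII+EGF libraries of 24 h. The other comparisons were tested, and those of CYP4F2 and CYP4F22 that use these libraries are not independent of the choice.

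Polyadenylated RNA was sequenced from a single HEK293 clone (HEK293 is a human embryonic kidney line) that carries a stably integrated expression plasmid for AT1R, the type 1 angiotensin II receptor. The clone was grown out of single cells under puromycin, with losartan present so that the receptor stayed blocked. All 8 groups, controls included, carried the receptor and were kept in medium without serum for either 6 h or 24 h. At each time the cells received no stimulus (control), 1 nM AII, 10 µg/L EGF, or both together (AII+EGF), and 6 libraries were deposited for each group. Of the 48 libraries, 38 entered the values below, which left at 6 h 4 control, 5 AII, 3 EGF and 4 AII+EGF libraries and at 24 h 6, 5, 5 and 6.

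CYP4F enzymes sit in the endoplasmic reticulum and put a hydroxyl group on the far (omega) end of a fatty acid chain, which opens the way to its breakdown or changes its signalling. CYP4F3 is the omega-hydroxylase that inactivates leukotriene B4, and it is best known from neutrophils and liver, where different promoters and exons are used. CYP4F2 acts on arachidonic acid and on the side chains of vitamins E and K, mainly in liver and kidney, and CYP4F11 and CYP4F12 are related enzymes of liver and gut. CYP4F22 makes the omega-hydroxylated very long fatty acids of skin acylceramides, and its loss causes a form of ichthyosis.

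A total of 4 pairs among the 1128 possible pairs of libraries were almost the same library: their counts differed by less than sampling noise allows (chi-square per degree of freedom 0.397 to 0.505, against 2.02 for the next pair). All but 1 of these pairs crossed a label, so all 8 libraries were left out. The libraries labelled AII 6 h replicate 6 and AII+EGF 6 h replicate 6 were also left out, because over 1492 genes the first lay at 0.858 and the second at −0.00675 on a scale where the other AII libraries average 0 and the other AII+EGF libraries 1. AGTR1, which the plasmid supplies, was read at a mean of 4271 to 13066 CPM (a gene's counts relative to the total of its library, scaled with TMM factors) in the 8 groups. At 6 h its mean was 4271 CPM in control and 10041 CPM in AII+EGF libraries, and at 24 h 7363 and 13066 CPM. The part of AGTR1 in the CYP4F values was not tested. Of the markers of the line, NEFL, NEFM, VIM, KRT8 and KRT18 were abundant and PAX2 was low (median 1.28 CPM). The summed level of 5 hepatocyte markers was 0.0475 to 0.704 CPM and that of 6 neutrophil and leukocyte markers 0 to 0.536 CPM, so the defining genes of the cells best known for CYP4F3 and CYP4F2 were at or near 0. Of other markers, the proximal tubule gene LRP2 and the fibroblast gene COL1A1 were read in every library, and the summed proximal tubule markers (3 genes, 2 of them with a median under 1 CPM) were 3.16 to 4.45 CPM in control libraries at 6 h and 5.68 to 13.1 CPM at 24 h. The 4 fibroblast markers summed to 12.7 to 15.6 and 15.8 to 42.7 CPM in the same groups, with only COL1A1 above a median of 1 CPM, and the keratinocyte list (10.1 to 23.8 CPM over all 38 libraries) rested on KRT10 alone. The HEK293 markers summed to 3498 to 5519 CPM in control and 7877 to 9379 CPM in AII+EGF libraries at 6 h, and their part in the CYP4F values was not tested. At 24 h the replicate 6 libraries stood apart: ETV5, an ETS factor induced by EGF, was 1.32 CPM in the EGF library and 1.01 CPM in the AII+EGF library, where the other 4 EGF libraries had 12.3 to 16.8 CPM and the control library of the same numbering 1.00 CPM.

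The 5 genes lie within 426 kb on the short arm of chromosome 19 (GRCh38.p14). Along the chromosome the order is CYP4F22 (15508525 to 15552317), CYP4F3 (15640897 to 15662825), CYP4F12 (15673087 to 15697174), CYP4F2 (15878023 to 15898074) and CYP4F11 (15912377 to 15934867). The table lists them as ENSG00000171954, ENSG00000186529, ENSG00000186204, ENSG00000186115 and ENSG00000171903, all protein-coding.

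The 250 bases before the RefSeq start site are shown for the 3 expressed members, because their log2 values after AII+EGF were below 0 for CYP4F3 and CYP4F2 and above 0 for CYP4F22 at both times, though not each of these passed a test. Each is written in the direction of its gene (GRCh38.p14), with matches to searched motifs in capitals.
CYP4F3, chr19:15641062-15641311, plus strand: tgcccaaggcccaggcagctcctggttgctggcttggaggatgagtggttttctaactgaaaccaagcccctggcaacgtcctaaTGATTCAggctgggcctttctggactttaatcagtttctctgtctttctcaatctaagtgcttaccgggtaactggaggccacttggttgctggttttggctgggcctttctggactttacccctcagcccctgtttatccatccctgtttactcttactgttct
CYP4F2, chr19:15898075-15898324, minus strand: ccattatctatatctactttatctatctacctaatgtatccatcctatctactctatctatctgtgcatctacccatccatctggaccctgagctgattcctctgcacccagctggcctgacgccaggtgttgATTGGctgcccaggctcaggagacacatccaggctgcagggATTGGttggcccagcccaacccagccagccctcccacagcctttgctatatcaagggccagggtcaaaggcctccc
CYP4F22, chr19:15508275-15508524, plus strand: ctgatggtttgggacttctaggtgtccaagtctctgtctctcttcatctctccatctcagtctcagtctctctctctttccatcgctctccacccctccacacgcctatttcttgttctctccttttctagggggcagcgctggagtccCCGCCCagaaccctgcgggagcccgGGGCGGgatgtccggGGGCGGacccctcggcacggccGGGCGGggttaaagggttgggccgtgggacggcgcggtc

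The capitals in CYP4F3 mark TGATTCA at positions −165 to −159 from the start site, found with the search TGANTCA. That search is wider than the usual AP-1 letters TGACTCA and TGAGTCA, and the middle base of the match belongs to neither of them. The window of the second start of CYP4F11, which had 2 counts in all, holds the same TGATTCA (−137 to −131). The capitals in CYP4F2 are 2 CCAAT letters read on the opposite strand (−117 to −113 and −76 to −72), and those in CYP4F22 are 4 GC boxes (GGGCGG, the first on the opposite strand). Among 35116 RefSeq promoters of this length, 6.57% held TGANTCA, 32% CCAAT and 42.6% GGGCGG on either strand. None of the 3 windows held the CRE letters TGACGTCA, the EGR letters GCGNGGGCG or the sterol element letters TCACNCCAC on either strand, which 1.65%, 8.41% and 0.883% of all these promoters held. The ETS letters (CCGGAAG, in 8.52% of promoters) and the nuclear receptor half-site (AGGTCA, in 12.1%) were not found in them either, nor were the TATA box (searched as TATAAA, in 10.7%) and the CArG box (in 1.16%). No printed match overlaps another. The CYP4F3 and CYP4F2 windows had 55.6% of their bases matched in a global alignment with gaps, close to the 54.4% between CYP4F3 and CYP4F22. Higher values were found between CYP4F2 and the first start of CYP4F11 (71.2%) and between CYP4F3 and the second start of CYP4F11 (70.4%). The CYP4F3 window lies inside the annotated span of the gene.

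Levels are given in CPM, and per kb of exon where genes are compared with each other. CYP4F3 was the most read member, with 18 to 223 counts in each of the 38 libraries and an average of 3.59 CPM, which is above 36.9% of the 19626 genes tested. CYP4F22 averaged 1.60 CPM (above 28.3% of tested genes) and CYP4F2 0.648 CPM (above 17%). CYP4F12 had 6 counts in all, spread over 5 libraries, and CYP4F11 had 2 counts in 1 library. Both stayed under the 3 counts per library taken as the limit of detection (0.100 to 0.169 CPM at these depths), so no comparison could be made for them, and CYP4F8, a neighbour of the same subfamily, had 1 count.

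Per kb of exon, CYP4F3 was the highest member in control cells at 24 h, with 1.23 ± 0.291 CPM per kb (SD, n = 6). CYP4F22 followed with 0.590 ± 0.310 and CYP4F2 with 0.506 ± 0.139 CPM per kb, which differ by less than their spread. After AII+EGF for 24 h the order was another one: CYP4F22 had 1.06 ± 0.299, CYP4F3 0.375 ± 0.0356 and CYP4F2 0.121 ± 0.0804 CPM per kb (SD, n = 6).

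**Figure D1:**
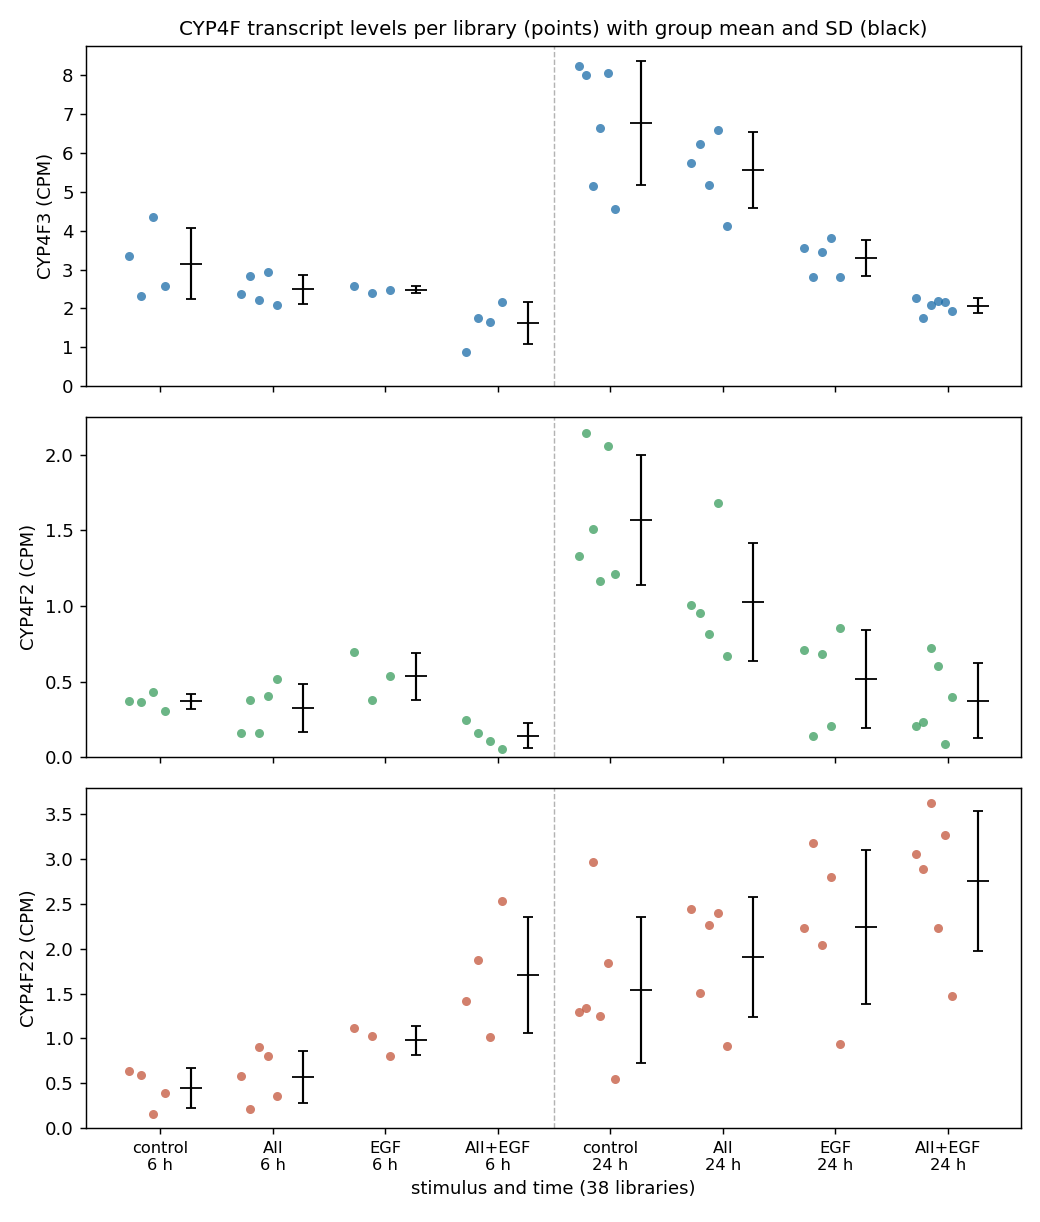
Levels of CYP4F3, CYP4F2 and CYP4F22 (vertical axes, CPM with TMM factors) in the 38 libraries (points) of the 8 groups (horizontal axis), with the group mean and SD in black. CYP4F3 and CYP4F2 are highest in 24 h control libraries and lowest after AII+EGF at 6 h, while CYP4F22 has its highest mean, 2.76 CPM, after AII+EGF for 24 h.

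CYP4F3, the leukotriene B4 hydroxylase, was read at 4.56 to 8.24 CPM (median 7.32) in the 6 control libraries at 24 h. The 5 AII libraries had 5.74, 6.22, 5.16, 6.58 and 4.11 CPM, the 5 EGF libraries 3.56, 2.82, 3.45, 3.82 and 2.80 CPM. The 6 AII+EGF libraries lay between 1.75 and 2.28 CPM (median 2.13). AII libraries overlapped with the controls, whereas every EGF library was below every control and every AII+EGF library was below every EGF library.

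On the log2 scale CYP4F3 was 1.04 ± 0.18 (SE) lower than control after EGF at 24 h, a 2.06-fold difference. After AII+EGF the log2 change was −1.71 ± 0.17, or 3.27-fold lower. These contrasts chose the family, so they carry no test. Among all 19626 genes tested, 0.245% were called after EGF at 24 h and 2.9% after AII+EGF, where a called gene has an adjusted p below 0.01, differs by 1.5-fold or more and exceeds 5 CPM in the higher of the compared groups. Without the replicate 6 libraries at 24 h the CYP4F3 values were −1.08 and −1.77. As these are bulk samples, fewer cells that express a gene and less of its RNA per cell cannot be told apart.

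Between the stimulated groups of 24 h, CYP4F3 was lower with AII+EGF than with AII alone, that is, when EGF was added to AII (−1.42 ± 0.18, 2.68-fold, no overlap). In this comparison 1.45% of all genes were called and 2.22% were lower without overlap. When AII was added to EGF the CYP4F3 difference was −0.67 ± 0.18, also without overlap, which 0.617% of all genes showed as lower values, and 0.0917% of all genes were called. With the title run (adjacent sample titles that together hold 1 set of treatments) as a block the difference was −0.69, and its adjusted p passed the threshold with the block and missed it without. Since the low AII+EGF values chose the gene, neither difference is a test.

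AII alone at 24 h gave −0.28 ± 0.17 for CYP4F3 (95% interval −0.63 to 0.06), and no gene was called in that comparison (0% by edgeR, with 1.75% of genes at an unadjusted p under 0.05). The interaction of both stimuli at 24 h, which is the joint log2 change less both single ones, was −0.38 ± 0.25, and 0% of genes were called for it.

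At 6 h the CYP4F3 level was lower throughout. Control libraries had 3.35, 2.32, 4.36 and 2.59 CPM and AII+EGF libraries 0.878, 1.77, 1.66 and 2.17 CPM, so that the groups did not overlap (lower without overlap in 15.9% of all genes). The fall of 0.96 ± 0.23 on the log2 scale passed the test (adjusted p = 9.12e-04), but the control mean of 3.15 ± 0.912 CPM is under the minimum of 5 CPM and the gene was not called. No member was called in this comparison by edgeR or DESeq2, as every member mean was under 5 CPM, and 12% of all genes were called. When the 5 CPM minimum is dropped, 2 of the 3 tested members passed. So did 16.5% of all genes (8.22% as falls), and a fall of this kind was thus common at 6 h. The adjusted p was 0.0108 when only these groups were fitted and 0.0102 without control 6 h replicate 5.

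The single stimuli at 6 h gave log2 changes of −0.34 ± 0.20 for AII (2.37, 2.85, 2.22, 2.93 and 2.08 CPM, adjusted p = 0.545) and −0.34 ± 0.23 for EGF (2.58, 2.39 and 2.48 CPM, adjusted p = 0.486). Both groups overlapped with the control. No member was called after either stimulus by edgeR or DESeq2, and none could be, as every member mean was under 5 CPM. Of all genes 0.469% and 1.94% were called. At an unadjusted p under 0.05 there were 0 and 1 members, which was not set against all genes. AII+EGF against EGF at 6 h was −0.62 ± 0.24 (adjusted p = 0.0965) and against AII −0.62 ± 0.22 (adjusted p = 0.0317). The log2 response to AII+EGF differed between 24 h and 6 h by −0.75 ± 0.28 (11.6% of all genes called), and the same difference for EGF was −0.70 ± 0.29. For AII it was 0.05 for CYP4F3, −0.48 for CYP4F2 and −0.03 for CYP4F22, and the last 2 did not pass (0.138% of all genes called). Over the 8 groups the means ran from 6.77 (control 24 h) over 5.56 (AII 24 h), 3.29 (EGF 24 h), 3.15 (control 6 h), 2.49 (AII 6 h), 2.48 (EGF 6 h) and 2.07 (AII+EGF 24 h) to 1.62 CPM (AII+EGF 6 h). In this order the step from AII 24 h to EGF 24 h and that from EGF 6 h to AII+EGF 24 h exceeded the larger SD of the neighbours, and the other steps did not.

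In control cells CYP4F3 was higher at 24 h than at 6 h (1.11 ± 0.19, 2.15-fold, no overlap), where 6.73% of all genes were called and 8.07% were higher without overlap. The 24 h controls are the reference of the contrasts that chose the gene, so a high level there was favoured by the choice and no test is given. Beside this, the 24 h EGF mean of 3.29 ± 0.458 CPM is near the 6 h control mean of 3.15 ± 0.912 CPM. Times were never in the same title run, so time and run cannot be told apart.

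CYP4F2, the closest relative of CYP4F3 among the expressed members, followed the same direction from a lower level. The 6 control libraries at 24 h had 1.16 to 2.15 CPM (median 1.42). The EGF libraries had 0.711, 0.139, 0.682, 0.204 and 0.857 CPM, and the 6 AII+EGF libraries 0.0838 to 0.725 CPM (median 0.312), where 2 to 15 counts were read per library. No EGF and no AII+EGF library reached the lowest control. The log2 changes were −1.56 ± 0.36 (2.94-fold) and −2.05 ± 0.35 (4.15-fold), given as a description like those of CYP4F3. Among all genes 0.866% were lower without overlap after EGF and 2.11% after AII+EGF.

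Against AII alone at 24 h, CYP4F2 under AII+EGF differed by −1.43 ± 0.38 on the log2 scale (adjusted p = 0.0108, which misses the threshold). The adjusted p was 0.00955 without the replicate 6 libraries of 24 h, 0.00756 with the title run as a block and 0.00457 by DESeq2, so this call depends on the setting. The groups overlapped, since the lowest AII library had 0.668 and the highest AII+EGF library 0.725 CPM. AII alone (1.00, 0.952, 0.815, 1.68 and 0.668 CPM) gave −0.62 ± 0.33 (adjusted p = 1.00). In control cells CYP4F2 was higher at 24 h than at 6 h by 2.08 ± 0.41 (adjusted p = 2.17e-04, 4.22-fold, no overlap). The means were 0.369 ± 0.0505 CPM at 6 h and 1.57 ± 0.430 CPM at 24 h (SD, n = 4 and 6). The choice of the family used these 24 h controls, so the test is not independent of it. Time and title run cannot be told apart here either. In that comparison 9.66% of all genes were higher by the test with no CPM minimum.

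At 6 h CYP4F2 was close to the limit of detection. Control libraries had 0.372, 0.365, 0.430 and 0.307 CPM (7 or 8 counts each), EGF libraries 0.692, 0.380 and 0.535 CPM, and AII+EGF libraries 0.244, 0.161, 0.107 and 0.0516 CPM, which is 5, 3, 2 and 1 counts. The AII libraries (0.158, 0.376, 0.159, 0.404 and 0.520 CPM) spanned the control values. The log2 changes were −0.15 ± 0.50 for AII (adjusted p = 0.945), 0.54 ± 0.51 for EGF (adjusted p = 0.648) and −1.33 ± 0.61 for AII+EGF (adjusted p = 0.0936). The change between AII+EGF and EGF was −1.87 ± 0.60 (adjusted p = 0.0367). Every member mean there was under 5 CPM, so none of the 3 tested members could be called (2.92% of all genes called, 16.4% lower without overlap). The response to EGF differed between 24 h and 6 h by −2.09 ± 0.62 (adjusted p = 0.0509) and the 6 h interaction was −1.73 ± 0.78 (adjusted p = 0.443), neither of which passed, with 1.03% and 0.229% of all genes called. In the order of its 8 group means, from 1.57 CPM in control at 24 h to 0.141 CPM after AII+EGF at 6 h, CYP4F2 had 3 steps that exceeded the larger SD of the neighbours: control 24 h to AII 24 h, AII 24 h to EGF 6 h, and AII 6 h to AII+EGF 6 h.

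CYP4F22, the acylceramide enzyme, went the other way. At 6 h the control libraries had 0.638, 0.593, 0.161 and 0.394 CPM and the AII+EGF libraries 1.42, 1.87, 1.02 and 2.53 CPM. The EGF libraries had 1.11, 1.02 and 0.802 CPM, which overlaps with the AII+EGF group (0.80 ± 0.44 between them, adjusted p = 0.282). Neither stimulated group overlapped with the control, and higher values without overlap were found in 17.4% of all genes after AII+EGF and in 13.2% after EGF.

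The rise of CYP4F22 under AII+EGF at 6 h was 1.91 ± 0.46 (adjusted p = 1.24e-03, 3.77-fold), and 8.33% of all genes rose by the same rule with no CPM minimum. It also rose against AII alone at 6 h (1.58 ± 0.42, adjusted p = 4.10e-03), with AII libraries at 0.579, 0.215, 0.899, 0.808 and 0.360 CPM. Of all genes 7.6% were called there, which no member could be at means under 5 CPM. With no CPM minimum 5.45% were higher, and 14.5% were higher without overlap. Against AII the CYP4F22 rise was 1.03 (adjusted p = 0.126) over all 48 libraries, 1.44 (adjusted p = 0.0111) with the near-identical pairs kept and 1.12 (adjusted p = 0.0988) with the doubtful labels kept. EGF alone gave 1.12 ± 0.50 (adjusted p = 0.224) and AII alone 0.33 ± 0.50 (adjusted p = 0.855). The rise against control also rests on which libraries are used: it was 0.63 (adjusted p = 0.247) over all 48 libraries, 0.88 (adjusted p = 0.0639) when the near-identical pairs were kept, and 1.61 (adjusted p = 0.0177) when the 2 libraries with doubtful labels were kept. The left-out libraries labelled control 6 h replicates 1 and 2 had 1.49 and 1.47 CPM of CYP4F22, scaled with all 48, and each was near-identical to a library labelled 24 h.

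At 24 h CYP4F22 was read at 0.553 to 2.97 CPM (median 1.32) in control libraries and at 1.47 to 3.62 CPM (median 2.98) after AII+EGF, which overlap. Its log2 change was 0.84 ± 0.31 after AII+EGF and 0.54 ± 0.33 after EGF (2.23, 3.19, 2.05, 2.80 and 0.935 CPM), given as a description, and 0.30 ± 0.33 after AII (2.44, 1.51, 2.26, 2.40 and 0.914 CPM, adjusted p = 1.00). AII+EGF against AII gave 0.54 ± 0.32 (adjusted p = 0.305) and against EGF 0.30 ± 0.32 (adjusted p = 0.789). In control cells CYP4F22 was higher at 24 h than at 6 h by 1.75 ± 0.43 (adjusted p = 2.04e-03, 3.37-fold), with the same limits as for CYP4F2. The mean of all 3 expressed members was thus higher in the controls of the later time. For CYP4F22 this difference was 0.89 (adjusted p = 0.109) over all 48 libraries, and it did not pass without control 6 h replicate 5 (adjusted p = 0.0136). Its 8 group means ran from 2.76 CPM after AII+EGF at 24 h to 0.447 CPM in control at 6 h, and of the steps in this order only that from EGF 6 h (0.980 CPM) to AII 6 h (0.572 CPM) exceeded the larger SD.

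**Figure D2:**
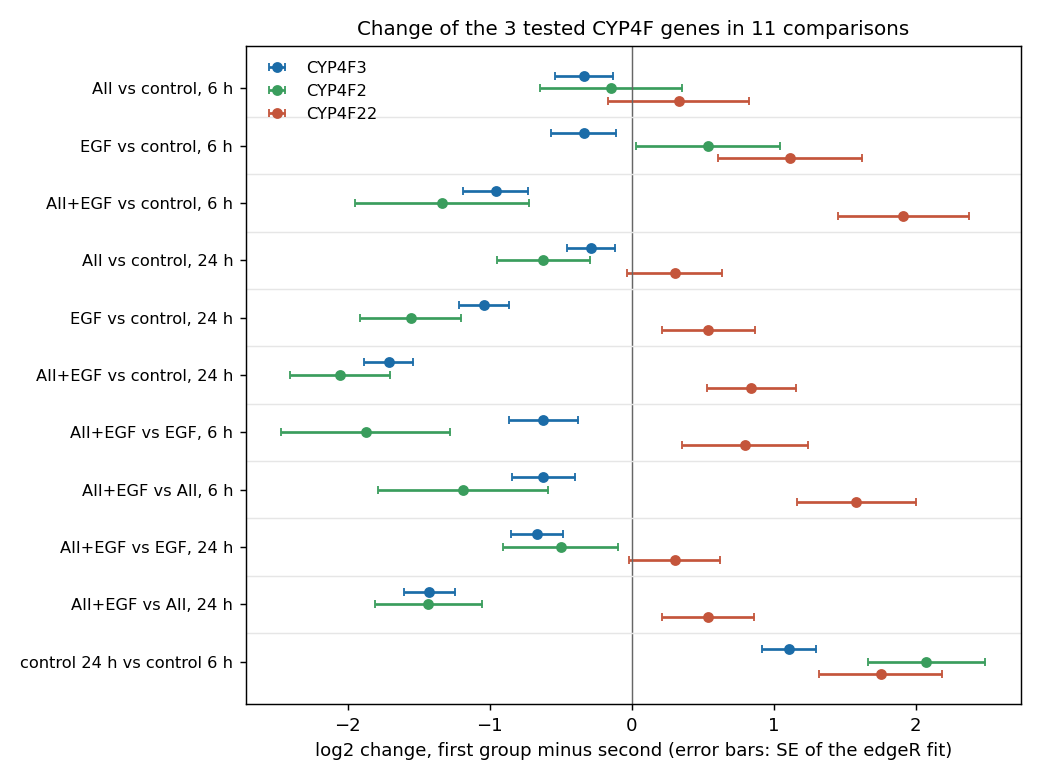
Log2 change with SE of CYP4F3, CYP4F2 and CYP4F22 in 11 comparisons (rows), as the first group minus the second. CYP4F3 and CYP4F2 lie left of 0 and CYP4F22 right of 0 in every comparison of AII+EGF with another group, while all 3 lie right of 0 for control at 24 h against control at 6 h.

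The make-up of the CYP4F reads differed between control and AII+EGF libraries at both times. CYP4F3 took 77.9 ± 7.85% of the counts of the 5 genes in 6 h control libraries and 46.3 ± 10.7% after AII+EGF (SD, n = 4 each). At 24 h its share was 68.6 ± 7.95% in control and 40.5 ± 6.45% after AII+EGF (SD, n = 6 each), with 53.5 to 75.9% and 32.3 to 50.9% in single libraries. The 24 h shares contain the CYP4F3 values that chose the family. The share of CYP4F22 was 11.8 ± 6.17% and 48.2 ± 8.02% at 6 h and 15.4 ± 7.91% and 52.2 ± 8.59% at 24 h. The summed level of the family was 4.0 ± 0.789 CPM in control and 3.49 ± 0.986 CPM after AII+EGF at 6 h, a difference below the spread. At 24 h the sum was 9.89 ± 2.05 CPM in control, 8.49 ± 1.81 after AII, 6.06 ± 0.864 after EGF and 5.20 ± 0.873 after AII+EGF.

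**Figure D3:**
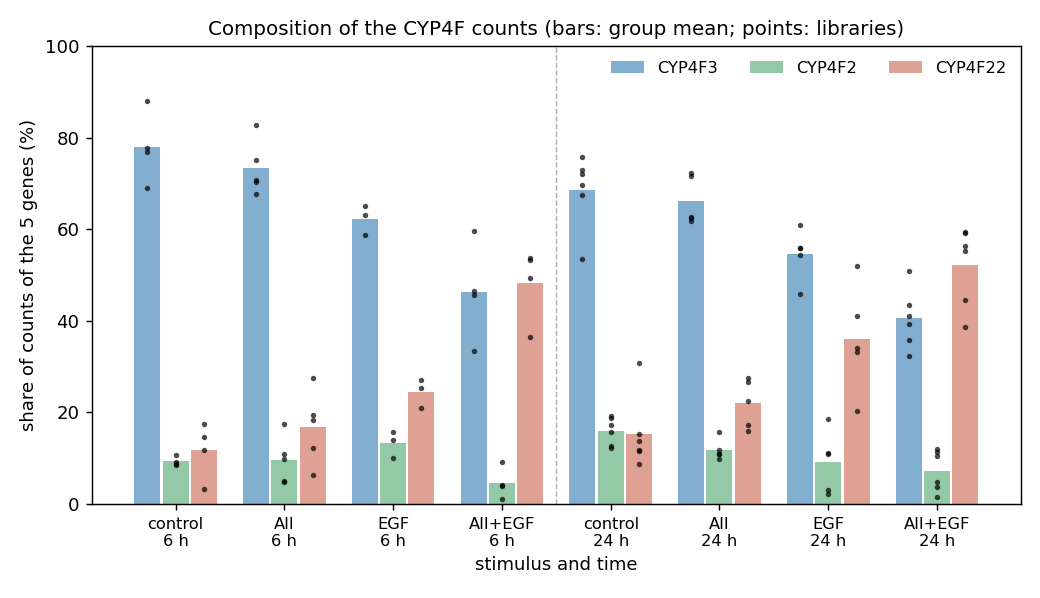
Share (vertical axis, %) that CYP4F3, CYP4F2 and CYP4F22 took of the counts of the 5 CYP4F genes in each of the 8 groups; bars are group means and points are libraries. At 24 h the mean CYP4F3 share is 68.6% in control and 40.5% after AII+EGF, and that of CYP4F22 is 15.4% and 52.2%. The family was chosen on these 24 h CYP4F3 values.

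The 24 h libraries come from 4 title runs, each with its own control, which allows the values to be read within a run. CYP4F3 after AII+EGF was 0.248, 0.362, 0.271 and 0.425 times the control of its run (runs 2, 3, 6 and 8). After EGF it was 0.438, 0.532, 0.475 and 0.615 times and after AII 0.737, 0.876, 0.817 and 0.902 times, so the order AII, EGF, AII+EGF held in each run. These ratios divide the same libraries that chose the family, so the order in the runs is a description and no test. Run 8, with ETV5 at its control level, had the smallest CYP4F3 differences of the 4, after AII alone as well. CYP4F22 had its largest ratio after AII+EGF in that run (2.66), and a link to ETV5 was not tested.

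CYP4F22 after AII+EGF at 24 h was 2.26, 1.39, 1.78 and 2.66 times its run control and after EGF 1.69, 1.24, 1.53 and 1.69 times, above 1 in every run. Its control libraries spanned 0.553 to 2.97 CPM, and with the run as a block the change after AII+EGF was 0.88 in place of 0.84. CYP4F2 ratios were more uneven, 0.126, 0.498, 0.0408 and 0.327 after AII+EGF, as counts of 2 to 15 per library allow. In run 3 its EGF ratio (0.307) was below that of AII+EGF, and in run 8 its EGF ratio (0.709) was above that of AII (0.553). At 6 h only runs 4 and 5 hold a control beside the stimulated libraries. There AII+EGF gave 0.584 and 0.498 times the control for CYP4F3 and 1.65 and 15.7 times for CYP4F22, the second against a control of 3 counts.

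**Figure D4:**
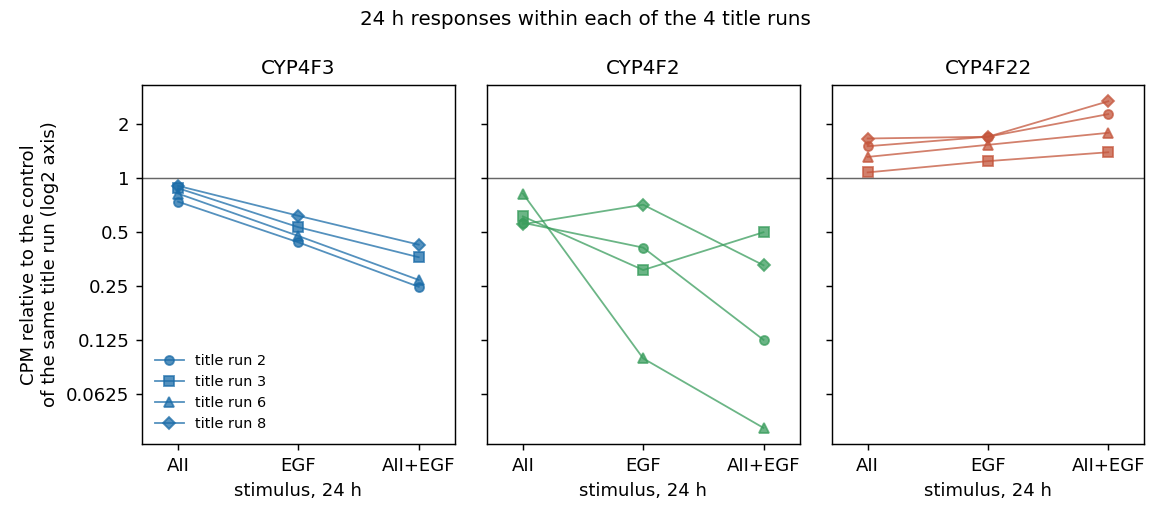
Level of CYP4F3, CYP4F2 and CYP4F22 after AII, EGF and AII+EGF at 24 h relative to the control of the same title run (log2 vertical axis; 1 is the control), with 1 line per run. CYP4F3, whose 24 h values chose the family, descends in all 4 runs to between 0.248 and 0.425. CYP4F22 stays above 1 in all 4, and CYP4F2 scatters between 0.0408 and 0.817.

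Close sequence among the members limits how far their reads can be assigned. Of the 50-base windows in annotated CYP4F2 transcripts 12.3% also occur in another gene, of those of CYP4F3 8.64%, and 406 of these windows are common to both genes. At 150 bases 23 windows remain shared, which is 0.615% and 0.373%. CYP4F22 shares no 50-base window with any other annotated transcript. The sum of CYP4F2 and CYP4F3, on which a split of reads between them has no bearing, had 8.34 ± 1.88 CPM in control, 3.81 ± 0.528 after EGF and 2.44 ± 0.322 after AII+EGF at 24 h. Other CYP4F loci, 16 in all and mostly pseudogenes on several chromosomes, were tested in 5 cases, and none of them passed at 24 h under AII+EGF.

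The genes whose log2 CPM was most like that of CYP4F3 over the 38 libraries were FRMPD2 (a scaffold protein, Pearson r = 0.868), AL645933.3 (0.840), LNCTAM34A (0.840), AC093866.1 (0.825) and CRISPLD1 (a secreted protein, 0.823). The points share 8 groups and their libraries, and r over the 8 group means was 0.894 to 0.982. FRMPD2 had 3.96 CPM in control and 0.924 CPM after AII+EGF at 24 h, and 2.39 and 0.277 CPM at 6 h. Of the other members CYP4F2 came 28th (r = 0.769, and 0.953 over group means) and CYP4F22 had an r of 0.0444.

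Calls in this list and the lists below stand beside the share of all genes called. At 6 h it was 12% for AII+EGF, 1.94% for EGF and 0.469% for AII. At 24 h it was 2.9%, 0.245% and 0%, and for control at 24 h against 6 h 6.73%. Among 7 other CYP4 genes only CYP4V2 and CYP4X1 were tested. CYP4V2, a fatty acid hydroxylase of the retina, fell under AII+EGF at 6 h from 22.3 to 9.13 CPM (−1.29 ± 0.12, adjusted p = 4.66e-11), and at 24 h it was 23.5 in control and 20.3 CPM after AII+EGF (−0.21 ± 0.09, adjusted p = 0.108). CYP4X1, an orphan enzyme of the same family, fell at both times, from 14.2 to 5.25 CPM at 6 h (−1.44 ± 0.35, adjusted p = 1.37e-03) and from 13.8 to 5.67 CPM at 24 h (−1.27 ± 0.28, adjusted p = 1.25e-03). Neither was called under AII or EGF alone against control.

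Genes for electron donors of P450 enzymes and for haem synthesis and breakdown showed no call by edgeR in any comparison with a stimulus (0 of 10 genes). Of these 10, 3 had an unadjusted p under 0.05 under AII+EGF at 6 h and 1 at 24 h, which was not set against all genes. Their median log2 changes were −0.13 and −0.02, beside −0.03 and −0.02 over all tested genes. POR, the reductase that every CYP4F enzyme needs, had 39.1 CPM in both control and AII+EGF libraries at 24 h (0.00 ± 0.10, adjusted p = 0.996). HMOX1, haem oxygenase, rose in control cells from 3.81 to 9.30 CPM between 6 h and 24 h (1.28 ± 0.21, adjusted p = 2.39e-05).

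Of 25 genes that release, convert or sense arachidonic acid and leukotrienes, 18 were tested. Under AII+EGF at 6 h 2 of the 18 were called, both lower, beside 12% of all genes. PTGES2, a prostaglandin E synthase, had −0.92 ± 0.18 (adjusted p = 8.64e-05) and PLA2G6, a calcium-independent phospholipase A2, −1.60 ± 0.30 (adjusted p = 4.68e-05). At 24 h 1 was called, the cytosolic phospholipase A2 gene PLA2G4A, which frees arachidonic acid. It rose from 9.35 to 14.4 CPM after EGF (0.63 ± 0.13, adjusted p = 4.25e-03) and to 14.7 CPM after AII+EGF (0.65 ± 0.12, adjusted p = 1.77e-04). In control cells PLA2G4A rose between 6 h and 24 h (0.86 ± 0.15, adjusted p = 2.57e-05), as did ALOX5, which starts leukotriene synthesis (2.61 to 5.15 CPM, 0.97 ± 0.22, adjusted p = 7.17e-04). The list medians of −0.59 at 6 h and 0.07 at 24 h under AII+EGF stand beside −0.03 and −0.02 over all tested genes.

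Of 12 acylceramide genes, which act beside CYP4F22, 10 were tested, and 2 were called under AII+EGF at 6 h, beside 12% of all genes. These were DEGS1 (a dihydroceramide desaturase, 0.59 ± 0.14, adjusted p = 8.27e-04) and SLC27A4 (a fatty acid transporter, 0.81 ± 0.18, adjusted p = 6.29e-04), both higher. None was called at 24 h, where ABCA12, the lipid transporter of the skin barrier, fell from 1.02 to 0.490 CPM below the CPM minimum (−1.05 ± 0.28, adjusted p = 7.36e-03). SLC27A4 was lower in control cells at 24 h than at 6 h, 24.5 against 50.3 CPM (−1.03 ± 0.17, adjusted p = 1.47e-05). Of 6 genes of the vitamin K cycle 1 was called, AIFM2, a quinone reductase, higher at 6 h after EGF (0.84 ± 0.12, adjusted p = 3.29e-06) and after AII+EGF (1.15 ± 0.11, adjusted p = 1.17e-10). Of 11 genes of omega and peroxisomal fatty acid oxidation 1 was called under AII+EGF at 6 h, beside 12% of all genes. It was EHHADH, a peroxisomal enzyme of beta-oxidation, which was lower (−0.72 ± 0.10, adjusted p = 4.13e-07).

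Among 14 tested genes of 16 that have been described as regulators of CYP4F genes, 4 were called under AII+EGF at 6 h. Among all genes 12% were called there. INSIG1, a sterol-regulated brake on SREBP, rose (1.79 ± 0.10, adjusted p = 8.25e-17), as did NFKB1 (0.65 ± 0.09, adjusted p = 5.05e-07) and PRKAA2, a catalytic subunit of AMP kinase (0.65 ± 0.20, adjusted p = 8.79e-03). RARB, a retinoic acid receptor, fell (−1.24 ± 0.13, adjusted p = 1.53e-09). At 24 h none of the 14 was called under EGF or AII+EGF. Of 44 annotated genes within 300 kb of the family 32 were in the table and 8 were tested, and only TPM4, a tropomyosin, was called under a stimulus, higher at 6 h after AII (0.66 ± 0.11, adjusted p = 1.65e-04) and after AII+EGF (0.74 ± 0.11, adjusted p = 1.84e-06), with none at 24 h. The AII+EGF response itself differed between 24 h and 6 h, by the same rule, for some listed genes and for 11.6% of all genes. The listed genes include CYP4V2, PTGES2, ALOX12, PLA2G6, AIFM2, DEGS1, SLC27A4, KDSR, EHHADH, RARB, NFKB1, INSIG1 and TPM4. CYP4F2 and CYP4F22 could not be called, as their highest means there were 1.57 and 2.76 CPM. Their differences were −0.72 ± 0.77 (adjusted p = 0.545) and −1.07 ± 0.56 (adjusted p = 0.166).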

How the data were processed

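The authors aligned polyadenylated reads to hg38 with HISAT2 2.1.0 and summarised them per gene with featureCounts, and the deposited table holds these raw counts for 60610 genes. Strand setting and the handling of reads with several matches were not given in the sources used here. Of 48 libraries, 38 with total counts of 17.8 M to 30.0 M were used. The other 10 were left out as 8 members of near-identical pairs and 2 with labels in doubt. Counts were normalised with TMM and tested in 1 quasi-likelihood fit over 8 groups with edgeR 4.0.16 (limma 3.58.1, R 4.3.3) after filterByExpr left 19626 genes, and p-values were Benjamini-Hochberg adjusted over all of them. DESeq2 1.42.0, other scalings, filters, thresholds and library sets were alternatives. The test was checked on simulated counts. The labels do not say that libraries came from separate cultures, so p-values measure the spread between libraries, which may be technical, and the 3-count limit of detection covers counting error only.

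Replicate numbers follow accession order and pair nothing. Exon lengths for levels per kb and transcript windows came from a GENCODE annotation, and promoters (written with Python 3.11.15 and Biopython 1.88) and gene positions from RefSeq tables of GRCh38.p14, which gave no promoter for CYP4F12. The members and gene lists were chosen with earlier results of these data known, and leaving out title run 8 (the 24 h libraries of replicate 6) was added after seeing the data. Named genes are the members, the 5 genes with the highest r with CYP4F3, and from each list the called genes, with 2 by smallest adjusted p where none was called; POR and ABCA12 were named after their values were seen.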

Additional observations from a re-analysis of the deposited data

How the results depend on the processing

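The count of members called was the same under most alternatives, but the 5 CPM minimum fixed much of this. Only CYP4F3 had group means above it, in control (6.77 CPM) and AII (5.56 CPM) libraries at 24 h. With the minimum, no member could be called between 6 h groups, and CYP4F2 and CYP4F22 could not be called in any comparison. With only the groups of a comparison fitted, the count was 0 in place of 1 for EGF at 24 h (0.245% of all genes called in the main fit). That 1 is CYP4F3 in a comparison that chose the family, so it is no test. At an adjusted p under 0.05 the count was 1 in place of 0 for the AII+EGF response at 24 h less that at 6 h. It ranged from 0 to 1 there when libraries were left out one at a time (1 without AII+EGF 6 h replicate 1). This member is again CYP4F3 and its 24 h libraries chose it, while 11.6% of all genes were called there in the main fit. Without the CPM minimum the count was 2 for AII+EGF against control at 6 h, where 16.5% of all genes passed. For AII+EGF against AII at 6 h it was 1, a rise (5.45% of all genes), and for control at 24 h against 6 h 3, all rises (9.66%). For AII+EGF against control at 24 h it was 2, CYP4F3 and CYP4F2, in a comparison that chose the family and carries no test. With all 48 libraries, and then with the near-identical pairs kept, several log2 changes reversed. At 6 h these were CYP4F2 after EGF (−0.31 and −0.30), the CYP4F3 interaction (0.33 and 0.14, −0.28 in the main fit) and CYP4F22 after AII (−0.41 and −0.56). The 24 h less 6 h response of CYP4F22 reversed for AII (0.66 and 0.81) and for EGF (0.41 and 0.40, −0.58 in the main fit). For AII+EGF it was 0.22 with all 48. The CYP4F22 interaction at 24 h, 0.00 in the main fit, was −0.0023 with the doubtful libraries kept, −0.056 without title run 8 and −0.044 with the title run as a replicate block. Leaving out single libraries moved it from −0.30 to 0.19 and the CYP4F22 response to AII at 24 h less 6 h from −0.23 to 0.27. That of CYP4F3 moved from −0.14 to 0.18. The CYP4F2 interaction at 24 h, 0.12 in the main fit, moved from −0.17 to 0.39, and CYP4F2 after AII at 6 h from −0.41 to 0.019. None of these reversed values had passed the threshold. The causes were not tested. The title run as a replicate block moved AII+EGF at 24 h to −1.68 for CYP4F3 and 0.88 for CYP4F22. CYP4F3 against AII at 6 h passed with it (adjusted p = 0.00963). CYP4F22 against AII at 6 h did not pass without AII 6 h replicate 2 or 5 or AII+EGF 6 h replicate 2 or 5 (adjusted p up to 0.0303). Over all genes the block gave 137 calls for EGF at 24 h, DESeq2 gave 76, all 48 libraries gave 4 and the fit of only these groups gave 2, against 48 as reported. For AII+EGF against EGF at 6 h all 48 libraries gave 64 calls and keeping the doubtful libraries 33, against 574. Counts of 1 to 15 per library limit CYP4F2 after AII+EGF.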
